A study of Homo sapiens with 4 samples.

Results

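Described here are 10 transcription factors of the AP-1 and immediate early group, JUN, JUNB, JUND, FOS, FOSB, FOSL1, FOSL2, EGR1, NR4A1 and NR4A2. They were chosen by name out of the 25192 genes in the deposited tables, with earlier results of these data known. Their RNA was measured in A549, a human lung adenocarcinoma cell line, 48 h after infection. For 2 samples the control empty virus (EV) was used, a retroviral vector that carries GFP without FCN3, and for 2 samples the FCN3 virus, the same vector with the V5-tagged coding sequence of FCN3, a secreted lectin of the complement system. All cells were thus infected and the results concern a single cell line with FCN3 driven by a viral vector. Whether the 2 samples of a group came from separate cultures is not stated, so that p-values measure the spread between these libraries, which may be technical.

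AP-1 is a dimer of 2 bZIP proteins, in its classical form a JUN protein with a FOS protein, that binds DNA through paired basic regions held together by a leucine zipper. JUN proteins can pair with each other, whereas FOS proteins need a JUN partner. Many of these genes are immediate early genes: their transcription starts within minutes of growth factor or stress signalling, without new protein synthesis, and their short-lived mRNA soon declines. EGR1 is a zinc finger factor of the same early response, and NR4A1 and NR4A2 are orphan nuclear receptors.

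The libraries held between 16353554 and 35733735 expected counts, the count estimates of RSEM, and levels are given below as CPM, TMM-normalized counts per 1000000. In each group replicate 1 had the larger total. FCN3 itself, on chromosome 1 from 27695601 to 27701315, had 1 and 0 expected counts in EV replicates 1 and 2, and 722388 and 448352 after FCN3 transduction, as labelled. Of 6 epithelial markers, KRT7, KRT8 and KRT18 were at 1612 TPM (transcripts per 1000000 transcripts, a level per transcript length) or above in every library. The keratin KRT19 was at 32.6 and 52.4 TPM in the EV libraries and at 87.2 and 97.9 TPM in the FCN3 libraries. EPCAM went the other way, at 2.66 and 3.65 against 1.09 and 1.61 TPM. CDH1 lay between 3.35 and 9.53 TPM, with overlap between the groups. The summed level of 5 leukocyte markers was between 0.32 and 1.99 TPM and that of 4 endothelial markers at most 0.08 TPM, while 5 fibroblast markers, chiefly COL1A1, summed to between 2.86 and 8.61 TPM.

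RefSeq promoter sequence of 4 of the genes is shown because JUN, EGR1 and JUND held a match to one of the searched motifs and because FOSL2, without a match, was the most abundant gene that was lower with the FCN3 virus. RefSeq promoters (table on GRCh38.p14) were found for 8 of the 10 genes and located in GRCh37 by exact sequence match. For FOSL2 the RefSeq start differs from that of GENCODE, and the window, from 28615475 to 28615724, lies inside the gene as GENCODE draws it, so that the bases before 28615315, the GENCODE start, were not searched. One of the 2 NR4A1 windows (chromosome 12, 52431249 to 52431498) likewise lies inside its gene. Of each window only the longest stretch without annotated exons is shown, and capitals mark motif matches.
JUN (chr1:59249721-59249941, minus strand): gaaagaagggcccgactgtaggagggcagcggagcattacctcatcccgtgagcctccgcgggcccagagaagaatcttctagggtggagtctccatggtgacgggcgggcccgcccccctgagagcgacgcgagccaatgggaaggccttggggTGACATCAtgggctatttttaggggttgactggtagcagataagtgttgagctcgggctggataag
EGR1 (chr5:137800918-137801167, plus strand): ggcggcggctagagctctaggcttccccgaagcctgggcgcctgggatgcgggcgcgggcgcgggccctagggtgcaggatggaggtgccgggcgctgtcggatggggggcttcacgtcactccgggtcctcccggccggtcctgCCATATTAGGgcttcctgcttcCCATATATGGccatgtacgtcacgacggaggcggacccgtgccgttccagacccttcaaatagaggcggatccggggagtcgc
JUND (chr19:18392433-18392682, minus strand): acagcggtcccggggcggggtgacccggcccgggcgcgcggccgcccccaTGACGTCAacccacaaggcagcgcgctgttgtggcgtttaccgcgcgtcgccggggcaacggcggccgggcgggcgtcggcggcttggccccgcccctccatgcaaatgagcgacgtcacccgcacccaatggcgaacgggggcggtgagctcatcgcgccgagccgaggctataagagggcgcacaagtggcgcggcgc
FOSL2 (chr2:28615475-28615668, plus strand): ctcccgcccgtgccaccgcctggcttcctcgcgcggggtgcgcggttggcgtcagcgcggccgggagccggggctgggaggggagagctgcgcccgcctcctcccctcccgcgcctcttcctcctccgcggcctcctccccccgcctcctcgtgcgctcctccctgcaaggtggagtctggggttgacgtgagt

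Both strands of the 250 bases before each RefSeq start were searched for the AP-1 site TGACTCA, the CRE TGACGTCA that CREB and ATF factors bind, the JUN-type site TGACATCA, the EGR site GCGTGGGCG, the NR4A site AAAGGTCA and the CArG box, the site of serum response factor. The JUN promoter held the JUN-type site from 67 to 60 bases before its start, a match that 2.36% of 34788 promoter windows of the same length have. EGR1 held 2 CArG boxes, CCATATTAGG from 105 to 96 and CCATATATGG from 83 to 74 bases before the start, against 1.17% of all windows with at least 1 such box. JUND held the CRE from 200 to 193 bases before its start, found in 1.64% of windows. None of these matches overlapped another. The AP-1 site is present in 4.21%, the EGR site in 0.722% and the NR4A site in 1.04% of windows, and neither these nor the other motifs were found in the RefSeq windows of FOSL2, FOS, FOSB, JUNB or the 2 of NR4A1. Only exact matches within these windows were searched, so that variants of a motif or sites further away would have been missed. A match describes the letters of the window and does not show binding. The motifs were chosen by name, the shares of windows are a description, and enrichment was not tested.

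Which of the 10 genes differed between FCN3-virus-transduced and EV cells was compared next, first without and then with a block for the replicate number, which compares libraries of the same number. With 2 libraries per group the blocked fit has little left to estimate the spread of a single gene. Its small p-values therefore rest largely on spread borrowed across all genes. JUN, FOSB, EGR1 and NR4A2 were higher with the FCN3 virus by 1.91-fold or more, JUNB and FOSL1 by less, and FOSL2 and NR4A1 were lower. In edgeR's quasi-likelihood test at an FDR of 0.01, 0 of the 10 genes passed without the block, while 0.738% of all 14099 tested genes passed as higher and 0.227% as lower. At an unadjusted p below 0.05 the count in this test was 7 of 10, against 25.12% of all tested genes. With the block 6 of the 10 genes rose and 2 fell, where 19.1% of all tested genes rose and 17.1% fell. DESeq2, the tool of the study's methods, called 2 of the 10 as higher and 1 as lower without the block, against 4.35% and 3.29% of all tested genes. With the block DESeq2 called 3 as higher and 2 as lower, against 1145 and 1112 of all 14099 tested genes. The FCN3 libraries were both higher than either EV library in 6 of the 10 genes and both lower in 2, an ordering that 28.0% and 26.5% of all tested genes had. The median log2 fold change of the 10 genes was 0.34, against 0.016 for all tested genes. Because the 10 genes were chosen with earlier results of these data known, these counts and shares are a description. Enrichment was not tested. In RNA from whole cultures, more or fewer expressing cells and more or less RNA per cell cannot be told apart.

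**Figure D1:**
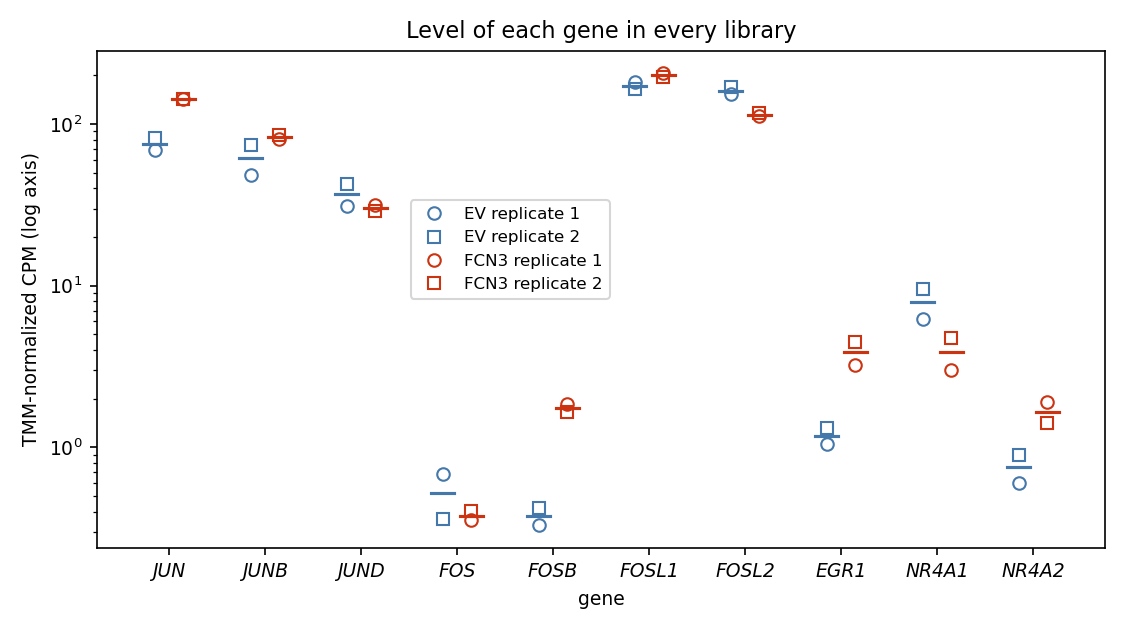
Level of each gene in TMM-normalized CPM (log axis) in every library. Circles are replicate 1, squares are replicate 2, blue is EV, red is the FCN3 virus, and short lines are the means of 2 libraries. The groups are apart for JUN, JUNB, FOSB, FOSL1, FOSL2, EGR1, NR4A1 and NR4A2 and overlap for JUND and FOS, and FOS lies below 1 CPM in all 4 libraries.

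JUN, the founding AP-1 subunit and a substrate of the stress kinase JNK, is an intronless gene on the minus strand of chromosome 1 (GRCh37, 59242517 to 59249720, as for all locations that follow). EV replicates 1 and 2 had 69.0 and 81.7 CPM of JUN, and FCN3 replicates 1 and 2 had 143.3 and 143.6 CPM. The FCN3 libraries were thus close to each other and well above both EV libraries. JUN was 1.91-fold higher, a log2 fold change of 0.93 (SE 0.11), and same-numbered libraries differed by 1.05 and 0.81. Its adjusted p in edgeR's quasi-likelihood test was 0.013 unblocked and 1.6e-19 when blocked, and 2e-09 in DESeq2. Without EV replicate 2 the log2 fold change was 1.05 with an adjusted p of 0.0038 in edgeR, so that leaving out this library brought JUN past the threshold. Over all 14 alternatives the adjusted p of JUN ran from 2.4e-21 to 0.034.

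JUNB, an AP-1 subunit that in many settings counteracts JUN, lies on chromosome 19 from 12902300 to 12904129, again without introns. EV libraries had 48.1 and 74.3 CPM of JUNB, and FCN3 libraries 80.8 and 86.0 CPM. The groups did not overlap, but EV replicate 2 was nearer to the FCN3 libraries than to EV replicate 1. On the log2 scale JUNB differed by 0.46 (SE 0.21, adjusted p = 0.25 in edgeR's quasi-likelihood test), by 0.18 without EV replicate 1 and by 0.79 without EV replicate 2. With the block it was 0.49 (SE 0.07, edgeR adjusted p = 9.8e-08), but DESeq2 with the block gave an adjusted p of 0.19, and over 14 alternatives the range was 9.8e-08 to 0.5. The JUNB gene shares 259 exon bases with HOOK2 on the other strand, and since the kit was stranded but the strand setting of the counting is not stated, reads there are uncertain.

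JUND, which is expressed steadily in most cells and is the least inducible JUN gene, lies on chromosome 19 (minus strand, 18390504 to 18392432). EV libraries had 30.9 and 42.7 CPM, and FCN3 libraries 31.5 and 29.0 CPM. The groups overlapped, and EV replicate 2 stood above the other 3 libraries. JUND had a log2 fold change of -0.27 (SE 0.17, adjusted p = 0.41 in edgeR's quasi-likelihood test), and over 14 alternatives the adjusted p ran from 0.015, with the block, to 0.93. Between libraries of the same number it was 0.03 for replicate 1 and -0.56 for replicate 2, and it was -0.48 without EV replicate 1 and -0.03 without EV replicate 2.

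FOSL1 (FRA1), a FOS protein without the transactivation domains of FOS and often abundant in epithelial tumors, was the highest of the 10 genes in TPM in every library. It lies on chromosome 11 (minus strand, 65659520 to 65668044). EV libraries had 180.9 and 164.1 CPM of FOSL1, and FCN3 libraries 205.8 and 196.7 CPM. The groups were apart by less than the distance between the EV libraries. FOSL1 differed by 0.22 on the log2 scale (SE 0.09, adjusted p = 0.2 in edgeR's quasi-likelihood test, 0.00034 with the block). DESeq2 with the block gave an adjusted p of 0.028, which does not pass, and over 14 alternatives the adjusted p ran to 0.57.

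FOSL2 (FRA2), the closest relative of FOSL1, lies on chromosome 2 from 28615315 to 28640184. EV libraries had 153.2 and 168.9 CPM of FOSL2, and FCN3 libraries 112.0 and 116.5 CPM. Both FCN3 libraries were lower than both EV libraries, and the distance between the groups exceeded that within either. FOSL2 had a log2 fold change of -0.50 (SE 0.09, adjusted p = 0.036 in edgeR's quasi-likelihood test, 4.8e-11 with the block, 0.00094 in DESeq2). It was -0.45 and -0.54 between libraries of the same number, and over 14 alternatives it stayed between -0.60 and -0.42 with adjusted p from 4.8e-11 to 0.18.

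FOS, the partner in the classical AP-1 dimer and the most transient of these transcripts, was scarcely detected. It lies on chromosome 14 from 75745529 to 75748933. EV libraries had 25 and 6 expected counts of FOS (0.686 and 0.358 CPM), and FCN3 libraries 12 and 8 (0.354 and 0.402 CPM). EV replicate 1 was the highest, and the other 3 libraries were alike. Counting error alone gave exact 95% Poisson intervals of 0.444 to 1.01 and 0.132 to 0.780 CPM in the EV libraries and of 0.183 to 0.618 and 0.174 to 0.793 CPM in the FCN3 libraries, so that all 4 intervals overlapped. Its log2 fold change was -0.63 (SE 0.51, adjusted p = 0.5 in edgeR's quasi-likelihood test), but 0.06 without EV replicate 1, and the 11 alternatives with an adjusted p gave 0.29, with the block, to 0.98.

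FOSB, which encodes an inducible FOS protein, had the largest fold change of the 10 genes. It lies on chromosome 19 from 45971253 to 45978437. EV libraries had 12 and 7 expected counts of FOSB (0.329 and 0.418 CPM), and FCN3 libraries 63 and 33 (1.86 and 1.66 CPM). The groups were far apart, and the exact 95% Poisson intervals reached at most 0.862 CPM in EV cells and began at 1.14 CPM or above with the FCN3 virus. FOSB was 4.91-fold higher, a log2 fold change of 2.30 (SE 0.37, adjusted p = 0.028 in edgeR's quasi-likelihood test, 4.2e-07 with the block, 0.027 in DESeq2), with 4.2e-07 to 0.14 over 13 alternatives. The table lists 2 FOSB transcripts together, and its length was 3776 bases in every library, so that the isoforms were not compared.

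EGR1, whose mRNA rises within minutes of growth factor signalling through the MAPK pathway, lies on chromosome 5 from 137801168 to 137804992. EV libraries had 38 and 22 expected counts of EGR1 (1.04 and 1.31 CPM), and FCN3 libraries 110 and 89 (3.24 and 4.47 CPM). Both FCN3 libraries were more than the double of either EV library. EGR1 differed by 1.72 on the log2 scale (SE 0.31, adjusted p = 0.038 in edgeR's quasi-likelihood test, 2e-08 with the block, 0.0089 in DESeq2). Same-numbered libraries differed by 1.64 and 1.77, and over 14 alternatives the adjusted p ran from 2e-08 to 0.15. EGR1 was thus 3.30-fold higher but still at most 2.58 TPM.

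The NR4A genes among the 10, NR4A1 and NR4A2, went in opposite directions in the fit with the block. NR4A3, named after its values were seen, had 29 and 28 expected counts (0.796 and 1.67 CPM) in the EV samples. In the FCN3 samples NR4A3 had 13 and 11 (0.383 and 0.553 CPM). Its log2 fold change was -1.28 (SE 0.55, edgeR adjusted p = 0.23, 0.0037 with the block, 0.22 in DESeq2 with the block). NR4A1 (NUR77), on chromosome 12 from 52416616 to 52453291, had 6.23 and 9.56 CPM in the EV samples but 3.01 and 4.73 CPM in the FCN3 samples. The groups did not overlap, and replicate 2 was the higher library in both. NR4A1 had a log2 fold change of -1.03 (SE 0.33, adjusted p = 0.13 in edgeR's quasi-likelihood test, 1e-07 with the block), with -1.05 and -1.02 between same-numbered libraries and adjusted p from 1e-07 to 0.4 over 14 alternatives. NR4A1AS, on the other strand, shares 754 exon bases with NR4A1, so that the count is uncertain if the strand was not used.

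NR4A2 (NURR1), on chromosome 2 (minus strand, 157180949 to 157198860), had 22 and 15 expected counts (0.604 and 0.896 CPM) in the EV samples but 65 and 28 (1.92 and 1.41 CPM) in the FCN3 samples. The groups did not overlap, but the exact 95% Poisson intervals of EV replicate 2 (0.502 to 1.48 CPM) and FCN3 replicate 2 (0.935 to 2.04 CPM) did. NR4A2 differed by 1.28 on the log2 scale (SE 0.37, adjusted p = 0.11 in edgeR's quasi-likelihood test, 0.00056 with the block). DESeq2 with the block gave an adjusted p of 0.2, and the range over 14 alternatives was 0.00056 to 0.44.

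**Figure D2:**
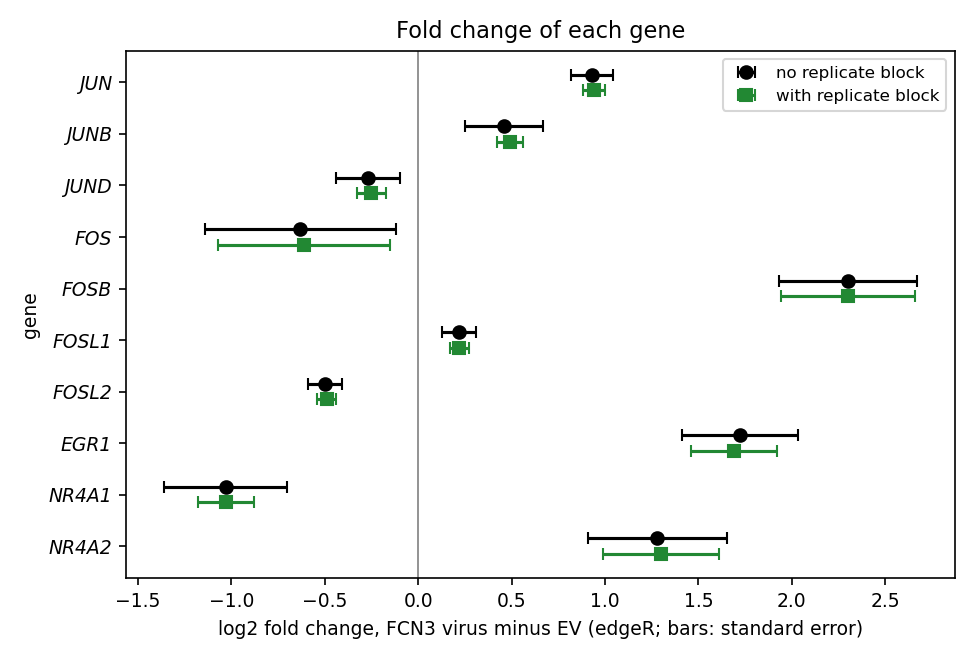
Log2 fold change (FCN3 virus minus EV) of each gene from edgeR, with the standard error as bars, from 2 libraries per group. Black circles are the fit without and green squares the fit with the replicate block. The estimates of both fits lie close together, for JUN at 0.93 and 0.94, while the standard error of JUNB went from 0.21 to 0.07 with the block.

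The smallest two-sided p of an exact permutation test on 1 gene is 0.333 for groups of 2, and only fits across all genes were therefore used. The replicate term of the blocked fit was tested after the values had been seen. JUNB was higher in replicate 2 by 0.35 on the log2 scale (SE 0.07, adjusted p = 1e-04 in edgeR's quasi-likelihood test) and NR4A1 by 0.63 (SE 0.15, adjusted p = 0.00092 in the same edgeR test). These 2 of the 10 genes passed, against 22.2% of all tested genes.

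Levels were then compared between the genes per transcript length, in TPM, as a description. TPM has a fixed total, and FCN3 itself held 41618 and 44730 TPM in FCN3 replicates 1 and 2, which lowers the TPM of other genes there. FOSL1 differed by 0.22 on the log2 scale in edgeR and by 0.12 in limma on log2(TPM + 1). Small differences in TPM between the groups were therefore not read, whereas ratios and shares within a library do not depend on the total. In both EV libraries the order among the JUN genes was JUNB, JUN, JUND, and JUN (40.1 and 47.0 TPM) and JUND (33.3 and 45.6 TPM) were separated by less than the spread of either. With the FCN3 virus the order was the same, but JUN (76.6 and 78.0 TPM) lay close to JUNB (82.7 and 89.5 TPM), and JUND (31.2 and 29.2 TPM) stood apart. The ratio of JUN to JUND was 1.20 and 1.03 in EV cells and 2.45 and 2.67 with the FCN3 virus. JUN thus held 31.6% and 26.9% of the summed TPM of the JUN genes in EV cells and 40.2% and 39.7% with the FCN3 virus, while the share of JUND was 26.3% and 26.1% against 16.4% and 14.9%. The sum itself was 126.9 and 174.6 TPM in EV cells and 190.6 and 196.7 TPM with the FCN3 virus.

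Among the FOS genes, FOSL1 and FOSL2 made up nearly the whole sum in every library. FOS held at most 0.213% and FOSB at most 0.309% of it. FOSL1 was at 221.2 and 199.0 TPM in EV cells and at 231.4 and 224.8 TPM with the FCN3 virus, and FOSL2 at 73.5 and 80.3 against 49.4 and 52.2 TPM. The share of FOSL2 was 24.9% and 28.7% in EV cells and 17.5% and 18.8% with the FCN3 virus. The ratio of FOSL1 to FOSL2 was 3.01 and 2.48 against 4.69 and 4.31. The summed FOS level was 295.5 and 279.8 TPM in EV cells and 282.0 and 278.1 TPM with the FCN3 virus. Since TPM has a fixed total that FCN3 shares, so small a difference does not show whether the groups were apart. In TPM, FOSL2 was above JUN in both EV libraries and below it in both FCN3 libraries. Of the remaining genes, NR4A1 was between 2.13 and 7.29 TPM, and FOS, FOSB, EGR1 and NR4A2 were at 2.58 TPM or below.

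**Figure D3:**
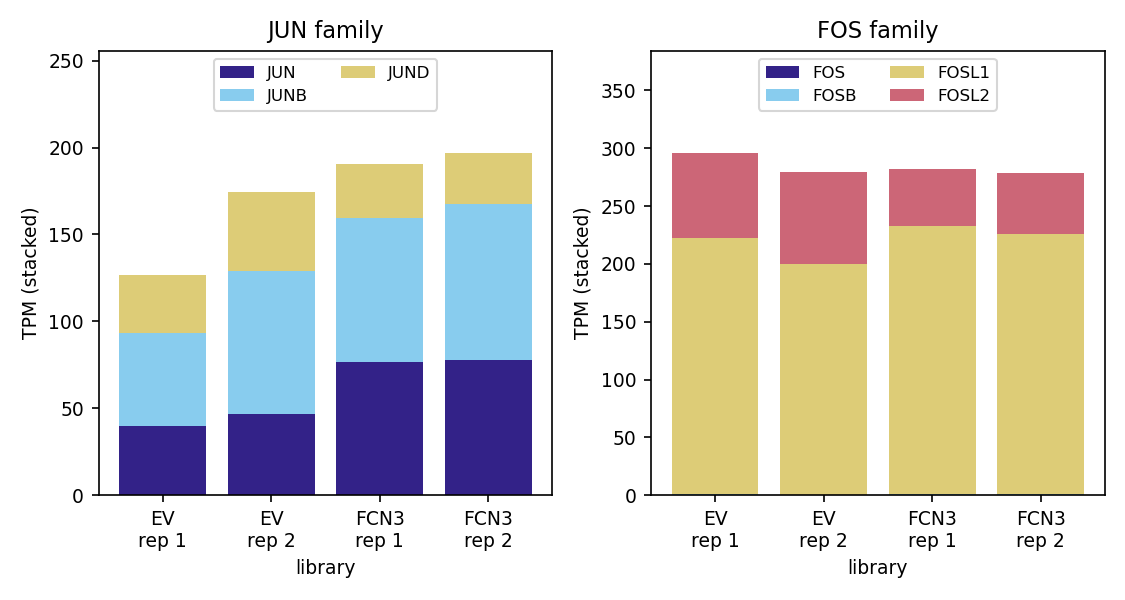
Stacked TPM of the JUN genes (left) and the FOS genes (right) in each of the 4 libraries. JUN takes 26.9% to 31.6% of the left bar in EV cells and 39.7% to 40.2% with the FCN3 virus. FOS and FOSB, each under 1 TPM, are too small to be seen in the right bars. Small differences in bar height between the groups are not read, since TPM has a fixed total that FCN3 shares.

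Genes that act with the 10 factors were taken from 4 lists, in which 77 genes were in the table and 68 were tested. The lists too were chosen with earlier results known, so that their counts beside all tested genes are a description. Only ATF3 passed edgeR's quasi-likelihood test without the block, 32 genes passed it with the block and 14 passed DESeq2. Of all tested genes 0.738% rose and 0.227% fell without the block, 19.1% and 17.1% with it, and 4.35% and 3.29% in DESeq2. ATF3, a stress-induced bZIP factor that pairs with JUN, had 3.49 and 5.79 CPM in the EV samples but 35.0 and 35.5 CPM in the FCN3 samples. It rose from a mean of 4.64 ± 1.63 CPM to 35.2 ± 0.374 CPM (SD, adjusted p = 0.005 in edgeR's quasi-likelihood test with n = 2 per group), with adjusted p from 1.1e-45 to 0.0079 over 14 alternatives. Of the 10 tested genes that share the bZIP fold and can enter AP-1 or related dimers, 7 rose with the block, 0 fell and 3 did not pass, where 19.1% of all tested genes rose and 17.1% fell. DESeq2 with the block called 5 of the 7. The others, named after their values were seen, were BATF2 (adjusted p = 0.37 in DESeq2) and MAF, which had no adjusted p there. Their median log2 fold change was 0.73, against 0.016 for all tested genes.

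Among 17 other immediate early genes, 6 rose, 3 fell and 8 did not pass with the block, against 19.1% higher and 17.1% lower over all tested genes, and the median log2 fold change was 0.12. DESeq2 with the block called 6 as higher and 1 as lower, against 1145 and 1112 of all 14099 tested genes. KLF4, a zinc finger factor linked to growth arrest, averaged 8.94 ± 0.982 CPM under EV and 24.9 ± 3.62 CPM under the FCN3 virus (mean ± SD of 2 libraries here and below, edgeR adjusted p = 0.013 and 2.4e-18 with the block). BTG2, an antiproliferative gene, averaged 23.5 ± 1.73 and 50.3 ± 3.79 CPM (edgeR adjusted p = 0.012 and 1.3e-17 with the block). CTGF, a secreted matricellular protein, averaged 31.0 ± 8.55 and 63.1 ± 17.4 CPM (edgeR adjusted p = 0.08 and 1.3e-18 with the block). NAB2, a corepressor of EGR1, was lower, at 18.4 ± 3.10 and 13.2 ± 1.51 CPM (edgeR adjusted p = 0.18 and 7.8e-05 with the block). Over 14 alternatives the adjusted p of KLF4, BTG2, CTGF and NAB2 reached at most 0.039, 0.03, 0.19 and 0.53, and it was lowest with the block. NAB2 did not pass in DESeq2 with the block (adjusted p = 0.039), and its log2 fold change went from -0.47 to -0.31 without EV replicate 2. EGR3 and EGR4 had at most 2 expected counts in each library.

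Of 25 tested kinases and promoter factors upstream of these genes, 5 rose, 2 fell and 18 did not pass with the block, and the median log2 fold change was -0.04. Over all tested genes 19.1% rose and 17.1% fell in that fit, so the count of higher genes was near the background. DESeq2 with the block called 3 as higher and 1 as lower, against 1145 and 1112 of all 14099 tested genes. The JNK genes MAPK8 (log2 fold change 0.06, SE 0.14) and MAPK9 (-0.09, SE 0.09) and the serum response factor gene SRF (0.05, SE 0.13) did not pass in either edgeR fit. Nor did the JNK gene MAPK10 (1.07, SE 0.65, edgeR adjusted p = 0.37 and 0.013 with the block). It had 21 and 4 expected counts under EV and 45 and 9 under the FCN3 virus. Kinase activity was not measured. ERN1, which encodes the ER stress sensor IRE1, averaged 5.54 ± 0.740 CPM under EV and 14.1 ± 0.200 CPM under the FCN3 virus (edgeR adjusted p = 0.016 and 4.6e-13 with the block). TRAF2, an adaptor that links IRE1 to JNK, was lower, at 82.6 ± 10.3 and 55.8 ± 5.26 CPM (edgeR adjusted p = 0.062 and 3.6e-11 with the block). The ternary complex factor genes differed in direction. ELK3 (log2 fold change 0.42, edgeR adjusted p = 0.056 and 1.4e-07 with the block) and ELK4 (0.34, 0.45 and 4.0e-05) were higher, though for ELK4 the groups overlapped. ELK1, named after its values were seen, was lower without overlap but did not pass (log2 fold change -0.17, edgeR adjusted p = 0.35 and 0.038 with the block). The adjusted p of ERN1, TRAF2, ELK3 and ELK4 reached at most 0.052, 0.24, 0.28 and 0.9 over 14 alternatives, again lowest with the block. ELK4 had an adjusted p of 0.026 in DESeq2 with the block, and its log2 fold change was 0.68 without EV replicate 1, 0.08 without EV replicate 2, 0.09 without FCN3 replicate 1 and 0.55 without FCN3 replicate 2. RPS6KA2, named after its values were seen because it stands apart in the plot of the lists, had 2 and 0 expected counts under EV and 66 and 12 under the FCN3 virus.

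Of 16 tested genes known as AP-1 targets, 9 rose, 0 fell and 7 did not pass with the block, beside 19.1% that rose and 17.1% that fell among all tested genes. DESeq2 with the block called 6 as higher and 0 as lower, against 1145 and 1112 of all 14099 tested genes. The median log2 fold change of the 16 was 0.24. VEGFA, an angiogenic growth factor, averaged 36.2 ± 0.181 CPM under EV and 61.2 ± 5.88 CPM under the FCN3 virus (edgeR adjusted p = 0.021 and 1.4e-13 with the block). HBEGF (log2 fold change 0.76, SE 0.27), a ligand of the EGF receptor, and HMOX1 (0.72, SE 0.25), a heme-degrading stress enzyme, had edgeR adjusted p of 0.16 and 0.15 without and 3.5e-06 and 1.6e-15 with the block. Over 14 alternatives the adjusted p of VEGFA, HBEGF and HMOX1 reached at most 0.082, 0.57 and 0.33. HBEGF did not pass in DESeq2 with the block (adjusted p = 0.025), and without FCN3 replicate 1 its log2 fold change was 0.40. That of HMOX1 was 0.41 without EV replicate 1 and 1.13 without EV replicate 2, where it passed edgeR's test with an adjusted p of 0.0064. The matrix metalloproteinase genes MMP1, MMP3, MMP10 and MMP13 were too low to be tested.

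**Figure D4:**
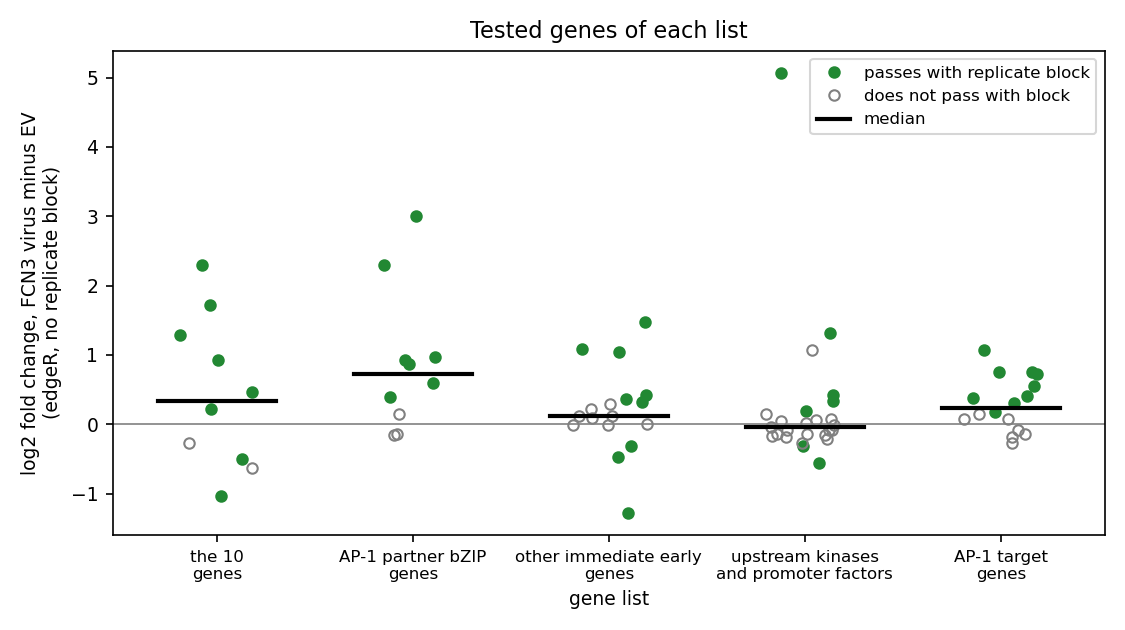
Log2 fold change (FCN3 virus minus EV, edgeR without the block) of every tested gene of the 10 described here and of the 4 lists. Filled green points pass an FDR of 0.01 with the replicate block, open grey points do not, and black lines are medians, 0.34 for the 10 genes and 0.73, 0.12, -0.04 and 0.24 for the lists from left to right. ATF3 is the highest point of its list, and the point at the top is RPS6KA2, with 2 and 0 expected counts under EV.

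The genes most like JUN and FOS over the 4 libraries were found by the Euclidean distance of log2 CPM values, each centred on its mean, among well-expressed genes (average log2 CPM 4 or more, 8310 candidates for FOS and 8309 for JUN). For JUN these were NDRG1, NSDHL and MPV17L2, at distances of 0.024, 0.025 and 0.053. For FOS, with its few counts, the nearest were DKK1, FAM72A and ALMS1, at distances of 0.312, 0.342 and 0.357. These distances are descriptions over 4 libraries, in which the deeper library of each group is replicate 1.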

How the data were processed

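RNA was sequenced from 2 EV and 2 FCN3 libraries of A549 cells, grouped and numbered by the sample titles. The authors trimmed the reads, aligned 101-base pairs to hg19 with STAR 2.6.1d and estimated abundance with RSEM. They deposited expected counts (estimated counts, not normalized), which were rounded here. The authors' deposited TPM, normalized by RSEM for length and depth, was used to compare genes. The deposited FPKM was not used. The library kit was stranded, per the labels, and the strand setting of the counting is not given in the sources used here.

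Counts were analysed in R 4.3.3 with edgeR 4.0.16 (TMM, filterByExpr, quasi-likelihood test with its current dispersion method, Benjamini-Hochberg adjustment over 14099 genes, FDR 0.01). SE was taken as the size of the log2 fold change over the square root of F. CPM is per 1000000 counts. DESeq2 1.42.0 and limma 3.58.1 served as alternatives, listed in the closing section. EdgeR's test without and with the block, DESeq2 without it, and limma on log2 counts per 1000000 were tried on simulated counts. No replicate effect was simulated, and the other alternatives were not tried in this way. Poisson intervals cover counting error only. At the floor of 3 counts, levels from 0.0823 to 0.179 CPM could be seen.

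The 10 genes and all lists were chosen with earlier results of these data known. Named were the 10 genes and, per list, genes past the threshold, or otherwise the 4 largest fold changes among those past it with the block whose average log2 CPM was 1 or more, together with FCN3 and the 3 genes most like JUN and FOS. MAPK8, MAPK9, MAPK10, SRF, ELK1, RPS6KA2, NR4A3, EGR3, EGR4 and the MMP genes were named after their values were seen. Gene locations are from GENCODE on GRCh37, the build of hg19. Same-numbered libraries are compared because the titles number them. No source says that a number marks a shared culture or day. The values of 1 gene that the rule names are not reported here. Protein sequences were not used here.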

Additional observations from a re-analysis of the deposited data

How the results depend on the processing

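The alternatives tried were RLE factors, DESeq2, estimateDisp with the older quasi-likelihood fit, no filter, at least 10 counts in every library, the replicate block in edgeR and in DESeq2, FCN3 left out before normalization, limma on log2(TPM + 1) and log2(TPM + 0.1), an FDR of 0.05, and each library left out in turn. Without the block edgeR called 136 genes over all tested, 0 of the 10 genes and 1 gene of the 4 lists. With the replicate block these counts were 5103, 8 and 32, with DESeq2 1077, 3 and 14, with DESeq2 and the block 2257, 5 and 22, and at an FDR of 0.05 1014, 4 and 10. Leaving out each library in turn gave 91 to 285 genes, 0 to 1 of the 10 genes and 1 to 3 of the lists, the highest each time without EV replicate 2. The lone library of an arm was then assumed to vary like the other arm. Under RLE, estimateDisp, both other filters, FCN3 left out and limma, the count of the 10 genes was again 0, with 105 to 159 genes called in all. The cause of these differences was not tested.

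The replicate difference of the EV libraries correlated with that of the FCN3 libraries (Pearson's r = 0.806 across 8310 genes, which are not independent replicates), but with 2 pairs the numbers alone do not show that libraries were paired. Over the 10 genes and the list genes named in the text by the rule, the one reversal of direction was that of FOS, whose log2 fold change ran from -0.88 without EV replicate 2 to 0.06 without EV replicate 1. On log2(TPM + 1) the values of the low genes FOSB and EGR1 were 0.62 and 0.89, since the pseudocount exceeds their TPM in EV cells. Under the filter of at least 10 counts in every library, FOS and FOSB were not tested, and DESeq2 gave FOS no adjusted p. Depth limits FOS, FOSB, EGR1 and NR4A2, each at 1.31 CPM or below in EV cells.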
